A study of Macaca fascicularis with 24 samples.

Results

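The ribosomal proteins of the cytosol were followed in the aorta of the cynomolgus macaque (Macaca fascicularis), taken from its thoracic part, in old and young animals of both sexes. Members were all genes of a cytosolic ribosomal protein whose symbol stands alone on a probe set of the array (a group of short probes that gives 1 value), leaving out RPS4X and its Y-linked relative. These were 55 of 11963 genes with a symbol of their own, read by 92 of 22215 probe sets: 31 of the large subunit, 19 of the small subunit and 5 paralogs (RPL3L, RPL10L, RPL26L1, RPL39L and RPS27L). A further 59 probe sets carry a ribosomal protein symbol beside other symbols, and they were not counted as members. By symbol, 54 of the 55 genes matched the RefSeq genes of the species, on 18 chromosomes with at most 7 on any of them and 0 adjacent pairs, so the members are scattered over the genome. RPL39 is the 1 member on the X chromosome.

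A ribosome joins a small subunit, which reads the messenger RNA, to a large subunit, which forms the peptide bond and holds the exit tunnel. Each subunit is built on ribosomal RNA, and most of its proteins are made in 1 copy per ribosome. Messenger RNAs of these proteins start with a run of pyrimidines and are among the most abundant in most cells. The smooth muscle cells that make up most of the aortic wall need ribosomes to make contractile and matrix proteins.

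Total RNA was measured on 24 single-colour human expression arrays, 6 for each of 4 groups, with no treatment given in the labels. Old females had a mean age of 21.2 years, old males 20 years, young females 7.2 years and young males 6.6 years. In 3 pairs of arrays (old females 1 and 4, young females 3 and 4, young males 3 and 4) the values were so alike that each pair was averaged and counted as 1 sample. The 21 samples so formed hold 5 young and 5 old females, and 5 young and 6 old males. The labels do not say that each sample is a separate animal, so p-values measure the spread between these samples. Monkey RNA was read with human probes, and a probe set's signal also depends on its own probes, so signals of different probe sets do not rank transcripts. All signals below are quantile-normalised log2(intensity + 16), called log2 signal, and all differences are differences of log2 signal.

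In 6 of the 21 samples (young female 3, young male 1, old males 2 and 4, old females 2 and 6) the arrays stood apart from the rest. Their median correlation with the other arrays was 0.850 to 0.875, against 0.906 to 0.940 for the others, and these 6 are called divergent below, from a limit of 0.89 set after the correlations were seen. The 3′ to 5′ log2 ratio of the actin control probe sets, often read as a sign of RNA length, was 0.78 to 1.73 in the divergent samples and -0.25 to 1.15 in the other 15. Spike control probe sets had a mean log2 value of 12.84 to 14.32 in the divergent arrays and 11.19 to 12.13 in the others. Array medians before quantile normalisation were 7.968 to 8.13 log2 units against 7.325 to 7.834. Neither of these measures overlapped between divergent and other arrays. What set the divergent arrays apart was not tested. The mean log2 signal of 6 smooth muscle markers was 10.53 to 12.29 in the divergent samples and 12.01 to 13.3 in the others, so the muscle of the labelled tissue was read in every sample. That of 3 adipocyte markers was 10.65 to 12.63 against 8.086 to 11.92. In such bulk RNA, fewer cells of a type and less RNA per cell cannot be told apart.

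Ribosomal protein probe sets were among the brightest on the arrays. The top 1% of all probe sets, 223 in number, held 46 of the 92 members, which is 50% of the members and 20.6% of that top class. The top 5% held 62 members. By the suffix of the probe set name these were 12 of 27 with _at, 28 of 35 with _s_at and 22 of 30 with _x_at. The median signal was 8.004, 13.78 and 13.9 for these suffixes, so the brightness was not shared evenly among probe sets. Taking each gene by its brightest probe set, 47 of 55 genes lay above the 95th percentile: 28 of 31 large-subunit genes, 19 of 19 small-subunit genes and 0 of 5 paralogs. The median of these brightest probe sets was 14.01 for the large subunit (range 7.993 to 15.42) and 14.25 for the small subunit (11.44 to 15.13), so the subunits were read at like signal.

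**Figure D1:**
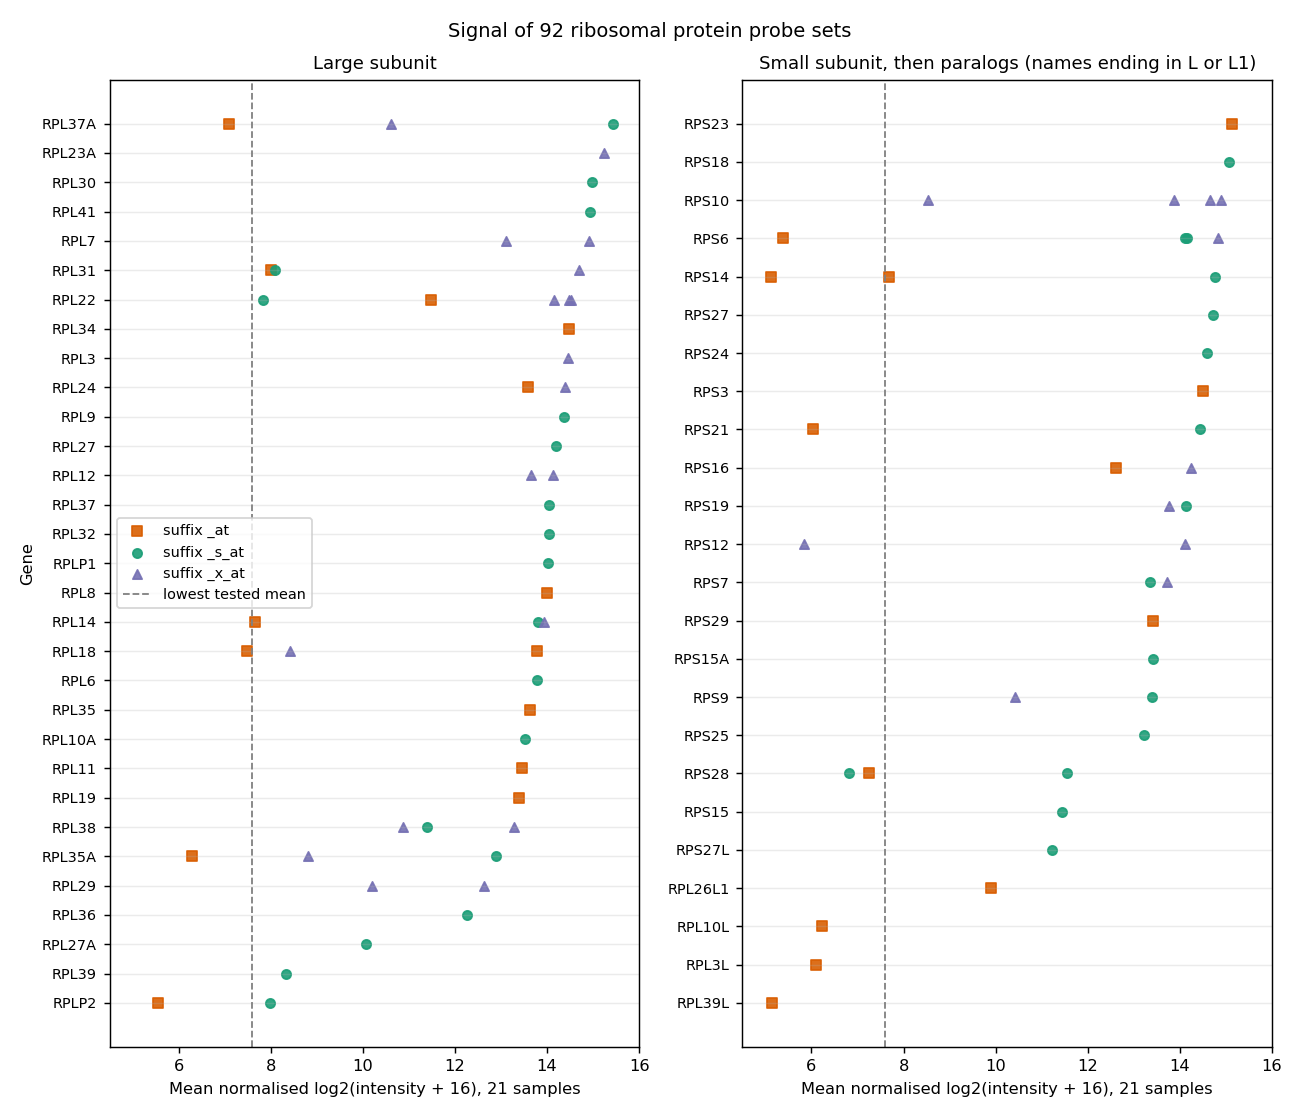
Mean log2 signal over the 21 samples (horizontal axis) of each of the 92 probe sets, 1 line per gene, with colour and shape for the probe-set suffix and a dashed line at the lowest tested mean, 7.595. Most genes have a probe set above 13, while second probe sets of RPL37A, RPL31, RPS14 or RPS6 and the paralogs RPL10L, RPL3L and RPL39L lie far to the left.

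RPL37A, a zinc-ribbon protein of the large subunit, had the highest mean, 15.42, through its _s_at probe set, and RPL23A, which binds the signal recognition particle at the tunnel exit, had 15.24. RPS23, a protein of the decoding centre, had 15.13. At the other end, a probe set of RPS14 had 5.132, RPL39L had 5.152 and a probe set of RPS6 had 5.381, although other probe sets of RPS14 and RPS6 reached 14.77 and 14.82. In 11 genes the probe sets of 1 gene lay over 5 log2 units apart, which shows how far the signal belongs to the probe set. Of the 92 members, 79 (of 52 genes) had a mean signal at or above the median of all probe sets and were tested: 48 of the large subunit, 29 of the small subunit and the paralogs RPS27L and RPL26L1. The 13 others were too dim for the filter and include all probe sets of RPL3L, RPL10L and RPL39L.

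The paralogs were read at very different signals. RPL3L, known from striated muscle, ranged from 5.084 to 8.139 over the 21 samples, RPL10L, known from testis, from 4.715 to 7.559, and RPL39L, also known from testis, from 4.354 to 6.794. RPS27L, a relative of RPS27 that p53 induces, was read at 10.8 to 11.7, and RPL26L1, a near copy of RPL26, at 9.494 to 10.29. Cross-reading between such copies was not tested.

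After quantile normalisation, members varied little between samples of a group. The median within-group SD of the 57 members in the top 2% of signal was 0.187, against 0.298 for the 388 other probe sets of that class. The 2 sets were not matched in signal: 46 of the 57 members lay in the top 1%, which holds 223 of the 445 probe sets of the class. Whether the brightest signals spread less by themselves was not tested. Over all tested members the median SD was 0.221, against 0.46 over all 11108 probe sets tested. For the large subunit it was 0.233 and for the small subunit 0.177. RPL37A on its bright probe set is an example of this: it read 15.43, 15.5, 15.25, 15.29 and 15.36 in young females and 15.44, 15.31, 15.59, 15.5 and 15.26 in old females. Its 5 young males read 15.45, 15.47, 15.37, 15.45 and 15.43, and its 6 old males 15.36 to 15.7 with a median of 15.43. The 4 groups overlap, and its age difference was 0.03 ± 0.08 (SE) in males and 0.05 ± 0.08 in females. The spread of the members depended on the scaling. The SD of the members' mean over the 21 samples was 0.15 as reported, 0.25 with the deposited scaling and 0.27 with median-centred arrays. Within-group SDs of single probe sets with those scalings are not given here.

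Old and young males did not differ in any member past the threshold. Of the 79 tested members, 0 had a limma adjusted p below 0.05, where 2 of all 11108 probe sets did (0.018%), and 0 had an unadjusted p below 0.05, against 3.36% of all probe sets. In 0 members did the old and young males not overlap, against 0.666% of all probe sets. There were 31 members with a higher and 48 with a lower mean in old males, with a median difference of -0.02 and a range of -1.05 to 0.37, where the median over all probe sets was -0.02 and 47.6% were higher. With the arrays centred on their medians instead of quantile normalised, 14 members were higher and 65 lower, where 42.6% of all probe sets were higher. With the deposited scaling alone 16 were higher and 63 lower, where 49.4% of all probe sets were higher. The members' median minus that of all probe sets was -0.01 as reported and -0.11 with either other scaling, so the male split depended on the scaling. For 55 of the 79 members the 95% interval of the male difference lay within 0.5 log2 units of 0, so larger shifts were outside the interval for those probe sets. Means of cell type markers also differed with age in males: 3 of 3 adipocyte probe sets were higher in old males, with a median of 1.5 and a mean level of 8.872 to 12.63 against 8.086 to 12.15 in young males. Both brown adipocyte probe sets (median 2.2) and 8 of 8 endothelial ones (median 0.39) were also higher. Their part in the member values was not tested.

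The smallest unadjusted p among male differences belonged to RPL37, a zinc-binding protein of the large subunit. It read 14.56, 14.1, 14.07, 14.07 and 13.84 in young males and 13.72 to 14.06 in old males, with a median of 13.94. Young male 1, a divergent sample, was the highest. Young males 2, 3 and 5 lay just above every old male, and young male 6 lay within their range, so the groups overlap through that sample. The difference was -0.21 ± 0.11 (SE), with an unadjusted p of 0.0728 and a limma adjusted p of 1.

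Other male differences were of like size or had wide errors. RPS3, at the mRNA entry of the small subunit head, read 14.42 to 14.66 in young males and 14.1 to 14.54 in old males, a difference of -0.14 ± 0.09. RPS23 differed by -0.12 ± 0.09, RPS29, a small zinc protein of the head, by -0.28 ± 0.22, and RPL41, the shortest ribosomal protein, by -0.10 ± 0.09. On the higher side stood RPL22 with 0.09 ± 0.08, RPL8 with 0.14 ± 0.14, RPS25, needed by some viral entry sites, with 0.12 ± 0.12, RPS27L with 0.16 ± 0.17 and RPS9 with 0.19 ± 0.20. The signs of RPL22 and of RPL8 turned with median-centred arrays (-0.06 and -0.02). The limma adjusted p was 1 for each of these. RPL14, a large-subunit protein, had the widest difference, -1.05 ± 0.58, on 1 dim probe set (219138_at), while its other probe sets read 13.80 and 13.93 on average.

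Old females had higher means than young females for most members, by small amounts, and again 0 of 79 members had a limma adjusted p below 0.05, where 0% of all probe sets did. The mean was higher in 58 members and lower in 21, with a median of 0.07 against -0.03 over all probe sets, of which 45.5% were higher. This majority depended on the scaling: with median-centred arrays 35 were higher and 44 lower, with a median of -0.02. There 36.1% of all probe sets were higher, with a median of -0.09. With the deposited scaling the split was again 58 and 21, where 48.2% of all probe sets were higher. The members' median minus that of all probe sets was 0.10 as reported and 0.07 with either other scaling. Single samples mattered too. The members' mean deviation was -0.11, 0.12, 0.23, -0.15 and 0.34 in old females 1, 2, 3, 5 and 6, and -0.15 to 0.18 in young females. The median difference was 0.02 without old female 6 and 0.13 without old female 5. Unadjusted p was below 0.05 in 2 members (2.53%), against 2.84% of all probe sets, and in 0 members did the groups not overlap, against 0.342%. In 50 of the 79 members the 95% interval lay within 0.5 of 0. Means of cell type markers also differed with age in females: 11 of 12 smooth muscle probe sets were lower in old females, with a median of -0.53 and a mean level of 10.53 to 13.1 against 11.06 to 13.13 in young females, and the 3 probe sets of HBB were higher, with a median of 2.2. The actin 3′ to 5′ log2 ratio averaged 0.73 in old and 0.29 in young females. Their part in the member values was not tested.

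The 2 members were RPS10 and RPL34, both higher in old females, against 1.03% of all probe sets higher at that p. RPS10, a protein of the small subunit head, read 13.69, 14.01, 13.85, 13.62 and 13.89 in young females and 13.7, 13.98, 14.15, 14.19 and 14.38 in old females on probe set 200817_x_at. Old females 3, 5 and 6 lay above every young female, and old females 1 and 2 within their range. The difference was 0.27 ± 0.12 (unadjusted p = 0.0389, limma adjusted p = 1). In males the same probe set differed by 0.16 ± 0.12, with 13.62 to 13.82 in young and 13.69 to 14.03 in old males, and the mean of both sexes was 0.21 ± 0.08 (unadjusted p = 0.0193, limma adjusted p = 0.984). The 2 brighter probe sets of RPS10 did not share this size: 200095_x_at differed by 0.06 ± 0.11 and 211542_x_at by 0.05 ± 0.11 in females, and by 0.01 and 0.05 over both sexes.

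RPL34, of the large subunit, read 14.56, 14, 14.22, 14.51 and 14.65 in young females and 14.51, 14.56, 14.71, 14.66 and 14.88 in old females. Young females 2 and 3 were low and the rest of the groups overlapped. The difference was 0.28 ± 0.13 (unadjusted p = 0.0447, limma adjusted p = 1). In males it was -0.10 ± 0.12. RPL34 was the 1 member whose age differences in males and females differed at an unadjusted p below 0.05, by -0.38 ± 0.18 (unadjusted p = 0.0483, limma adjusted p = 1), where 1.94% of all probe sets did.

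The other female differences that were largest against their error were again on the higher side. RPS19, a protein of the small subunit head whose loss causes Diamond-Blackfan anaemia, differed by 0.20 ± 0.11 and 0.19 ± 0.10 on its probe sets, RPS25 by 0.21 ± 0.13, RPL11 by 0.21 ± 0.14, RPS27L by 0.25 ± 0.17 and RPL38 by 0.25 ± 0.15 on its brightest probe set. On the lower side, RPL23A differed by -0.17 ± 0.15, RPLP2 by -0.51 ± 0.53, RPL3, near the peptidyl transferase centre, by -0.10 ± 0.12, RPS3 by -0.06 ± 0.09, RPL8 by -0.09 ± 0.15 and RPL26L1 by -0.11 ± 0.17. The limma adjusted p was 1 for all of them.

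**Figure D2:**
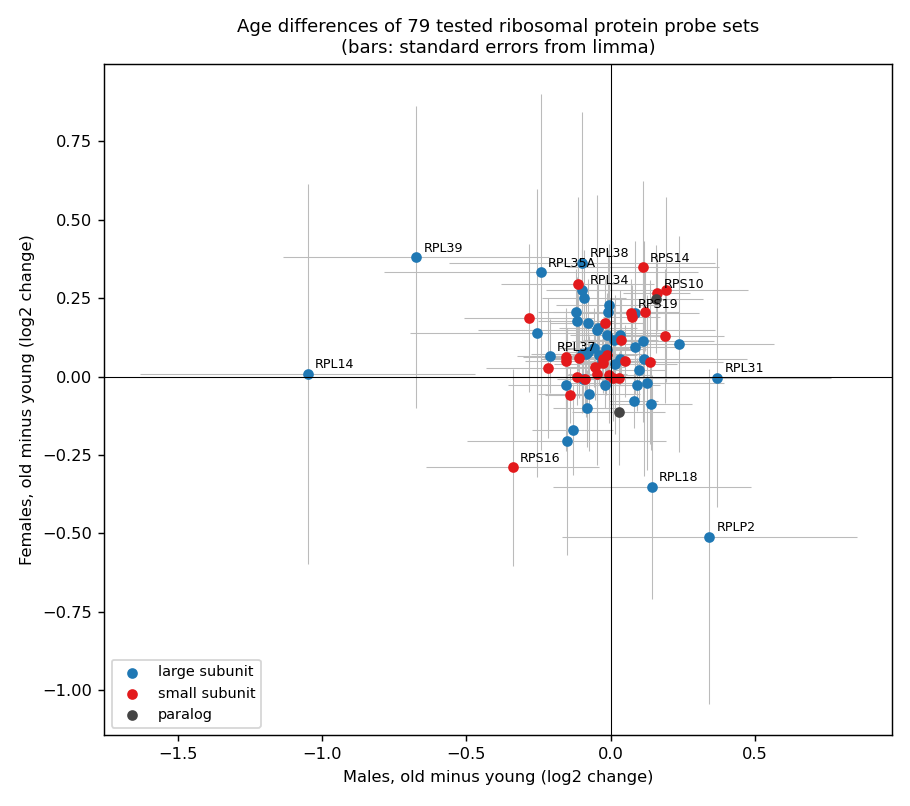
Difference of log2 signal between old and young males (horizontal) and old and young females (vertical) for the 79 tested probe sets, coloured by subunit, with standard errors from limma as grey bars and symbols beside the points farthest out. Most points lie within 0.3 of 0 on both axes, 58 of 79 lie above the horizontal line, and the points far from 0 carry the longest bars.

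Over both sexes together and for the difference between the sexes' age effects, 0 of 79 members passed the adjusted threshold, where 0% of all probe sets did in either comparison. In the mean of both sexes 1 member, RPS10, had an unadjusted p below 0.05, against 4.38% of all probe sets. For 60 of 79 members the age difference in males lay below that in females. The median of this difference was -0.09, against 0.02 over all probe sets, of which 52.8% lay above 0. Males and females enter this difference with their own old and young samples, so it holds the same samples as the comparisons above.

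The members were also read by their place in the ribosome, with no test between places. Probe sets of the polypeptide tunnel and its exit (7, of RPL19, RPL23A, RPL31, RPL35 and RPL39) had a median age difference of -0.01 in males and 0.11 in females. The 15 of the small subunit head had -0.01 and 0.07. The P stalk, which recruits the elongation factors, was read by RPLP1 and RPLP2, whose median was 0.17 in males and -0.20 in females, set by RPLP2. RPLP1 read 13.81 to 14.2 in young males, 13.81 to 14.15 in old males, 13.92 to 14.12 in young females and 13.91 to 14.51 in old females, with differences of 0.01 ± 0.11 in males and 0.12 ± 0.11 in females. RPLP2 was read by 1 dim tested probe set, with 4.935 in young male 6 and 7.605 to 9.253 in the other young males. Its male difference of 0.34 ± 0.51 became -0.39 without that sample. In females RPLP2 read 7.885, 8.081, 8.441, 8.118 and 8.546 in the young and 7.338, 7.51, 8.553, 7.077 and 8.044 in the old, a difference of -0.51 ± 0.53 (limma adjusted p = 1).

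RPS6, the small-subunit protein that the S6 kinases phosphorylate, had 3 bright probe sets. On 201254_x_at it read 14.8, 14.86, 14.65, 14.83 and 14.85 in young females and 14.83, 14.79, 15.02, 14.85 and 14.71 in old females. Young males read 14.87, 15, 14.58, 14.96 and 14.82, and old males 14.61 to 15.02 with a median of 14.8. All 4 groups overlap. The 3 probe sets differed by 0.01 to 0.05 between old and young females and by -0.16 to -0.03 in males, each with a limma adjusted p of 1.

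RPL39, a short protein in the tunnel wall and encoded on X, was read at a lower signal and with more spread. It read 9.48, 7.887, 8.071, 8.799 and 8.017 in young males and 6.232 to 8.796 in old males, with a median of 7.921. Old females read 7.24, 9.249, 9.348, 8.517 and 9.606, and young females 7.8, 7.934, 9.174, 8.76 and 8.39. In each of the 4 groups the highest value belonged to a divergent sample, and the groups overlap. The age difference was -0.67 ± 0.46 in males and 0.38 ± 0.48 in females.

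Between old males and old females, most members had lower means in the males. By mean, 66 of 79 members were lower in old males and 13 higher, with a median of -0.12, where the median over all probe sets was 0.02 and 52.6% were higher. None was called: 0 of 79 had a limma adjusted p below 0.05, against 0.027% of all probe sets, and in 0 members did the groups not overlap, against 0.279%. An unadjusted p below 0.05 was found in 8 members (10.1%), all lower in old males, against 4.08% of all probe sets in either direction and 2.01% on the lower side. The lower means held with median-centred arrays (71 of 79 lower, median -0.19) and with the deposited scaling (74 of 79, -0.24). Of all probe sets, 58.6% and 51.5% were higher in old males with these scalings. The count of 8 fell to 1 without old female 3, to 2 without the 6 divergent samples and to 2 with median-centred arrays. Sample by sample the old groups overlapped. The members' mean deviation was -0.11, 0.12, 0.23, -0.15 and 0.34 in old females 1, 2, 3, 5 and 6, and -0.20 to 0.20 in old males. Only old females 3 and 6 lay above every old male. With median-centred arrays the members' mean was 12.83, 12.63, 13.5, 12.41 and 13.27 in these old females, and 12.3 to 12.94 in old males.

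RPL11, which with RPL5 and the 5S RNA forms a particle that can bind MDM2, had the smallest p of these. It read 13.46, 13.61, 13.78, 13.5 and 14.01 in old females and 12.97 to 13.46 in old males, with a median of 13.37. The highest old male equalled the lowest old female at 13.46, and old male 4 was the lowest. The difference was -0.37 ± 0.13 (95% interval -0.64 to -0.10, unadjusted p = 0.0103, limma adjusted p = 0.999). In young animals it was -0.04 ± 0.14.

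RPS19 read 13.82, 13.71, 14.22, 13.96 and 14.12 in old females and 13.47 to 13.83 in old males on probe set 202649_x_at, with a median of 13.71. Old females 3, 5 and 6 lay above all old males. The difference was -0.27 ± 0.10 there and -0.25 ± 0.10 on its other probe set (unadjusted p = 0.0166 and 0.0186, limma adjusted p = 0.999). RPL34 differed by -0.28 ± 0.12, RPL6 by -0.28 ± 0.13, RPL38 by -0.32 ± 0.15 on its brightest probe set, RPL39 by -1.01 ± 0.46 and RPL14 by -1.46 ± 0.58 on its dim probe set. In none of RPL11, RPS19, RPL34 and RPL39 were the old males and old females fully apart.

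**Figure D3:**
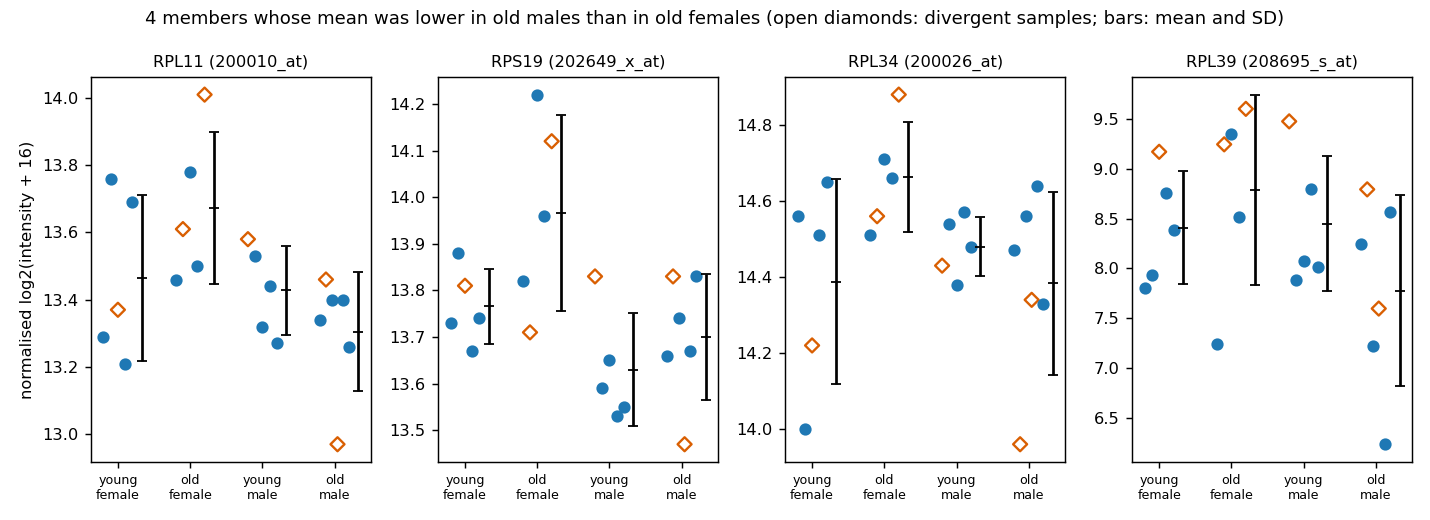
Log2 signal of RPL11, RPS19, RPL34 and RPL39 in each sample of the 4 groups, with open diamonds for the 6 divergent samples and bars for the mean and SD of each group; each panel has its own vertical scale, which does not start at 0. Old males have lower means than old females in all 4 panels, by 0.27 to 1.01, and the points of the groups overlap or meet.

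Means of cell type markers also differed between the sexes in old animals. Of 12 probe sets of 6 smooth muscle genes, 11 were higher in old males, with a median of 0.64, and their mean level was 10.53 to 13.1 in old females and 12.14 to 13.3 in old males. The haemoglobin gene HBB, the 1 red cell gene tested of 6 listed, read 10.44 to 15.15 in old females and 9.037 to 13.63 in old males. Old female 6 had the highest mean of the members (0.34 above their average), the lowest smooth muscle level (10.53) and the highest level of the lymphocyte markers CD2 and MS4A1 (9.82), the 2 tested of 6 listed. Old female 3 came next with 0.23, with the highest macrophage marker level (10.11). The actin 3′ to 5′ log2 ratio averaged 0.73 in old females and 0.18 in old males, and ran from -0.10 to 1.73 and from -0.25 to 0.85. The part of these in the lower values of old males was not tested.

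In young animals 32 members had a higher and 47 a lower mean in males than in females, where 49.1% of all probe sets were higher, and the median was -0.02. Of the 79, 0 had a limma adjusted p below 0.05 (0.027% of all probe sets) or an unadjusted p below 0.05 (1.4%). In RPS7, of the small subunit, all young males lay below all young females on probe set 200082_s_at, with a difference of -0.22 ± 0.15. Of all probe sets, 0.405% did so on the lower side. The gap was narrow, with young males up to 13.34 and young females from 13.35. On the brighter RPS7 probe set, 213941_x_at, the mean was 13.67 in young males and 13.7 in young females, and these groups overlapped. RPL27 was higher by 0.14 ± 0.10 and RPL36 differed by -0.36 ± 0.28, both of the large subunit.

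The large and small subunits gave like age differences. In males the median was -0.04 over the 48 large-subunit and -0.02 over the 29 small-subunit probe sets, and in females 0.08 and 0.06. For each sample, the mean deviation of the large-subunit probe sets minus that of the small-subunit probe sets was taken. It averaged 0.02 ± 0.08 (SD, n = 5) in young females, 0 ± 0.16 (n = 5) in old females, 0 ± 0.12 (n = 5) in young males and -0.02 ± 0.15 (n = 6) in old males. The groups overlap and the differences between their means are below the SDs.

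The same measure split the samples another way. It was 0.15 to 0.18 in the 6 divergent samples and -0.21 to 0.05 in the 15 others, with no overlap. Median-centred arrays and the deposited scaling each gave 0.09 to 0.21 against -0.19 to 0.04. With 1 probe set per gene, the brightest, the ranges were 0.05 to 0.15 and -0.13 to 0.04. Over the 57 members in the top 2% of signal they overlapped, at 0.01 to 0.16 and -0.12 to 0.03. Divergent samples occur in all 4 groups, 2 of 6 old males, 1 of 5 young males, 2 of 5 old females and 1 of 5 young females. Since the divergent samples were set apart by the same arrays, no test is given.

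**Figure D4:**
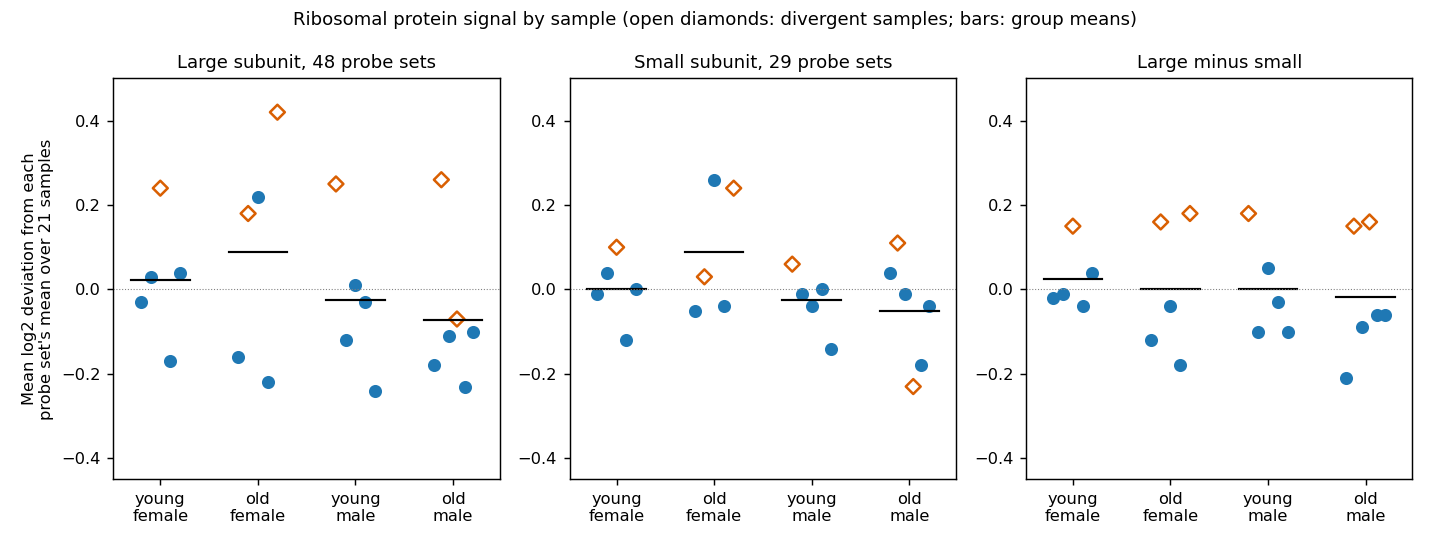
Mean deviation of log2 signal from each probe set's average over the 21 samples, for the large subunit, the small subunit and their difference, per sample and group; open diamonds are the divergent samples and bars the group means. In the right panel the 6 divergent samples lie at 0.15 to 0.18 in whichever group they fall, above all others, and the group means lie near 0.

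The split was widest in single probe sets, and other probe sets of the same gene often did not share it. The divergent samples were higher by a median of 0.16 over the large-subunit probe sets (39 of 48 higher) and by 0.05 over the small-subunit ones (19 of 29). This direction depended on the scaling. The mean over the tested members was 13.01 in divergent and 12.8 in other samples as reported, and 13.07 and 12.77 with the deposited scaling. With median-centred arrays it was 12.73 and 12.92, so the divergent samples were lower there. The counts in this paragraph are from quantile-normalised signals. Of the 79 tested members, 11 differed by 0.7 or more, 9 higher and 2 lower, where 24.2% of all probe sets did. Without them the measure was 0 to 0.12 in the divergent samples and -0.14 to 0.06 in the others, and the ranges overlapped. In 5 members all divergent samples lay above all others, against 1.76% of all probe sets: 2 probe sets of RPL38 and 1 each of RPL27A, RPL9 and RPS10. In 0 members did all lie below, against 2.13%.

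RPL38, a large-subunit protein known in the mouse for its part in translating Hox mRNAs, showed this within 1 gene. Probe set 221943_x_at read 11.73 to 12.24 in the divergent samples and 9.969 to 11.02 in the others, and 202028_s_at followed it (r = 0.96 across the 21 samples). The brightest probe set, 202029_x_at, read 12.79 to 13.99 with a mean difference of 0.08 between divergent and other samples, and correlated with those at 0.26 and 0.17. These r values describe 21 samples that share the arrays' scaling.

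Other genes did likewise. RPL37A differed by 1.15 on 214041_x_at and by -0.04 on its bright probe set, with r = -0.48 between them, and RPL35A by 1.60 on 215208_x_at and 0.09 on its bright one. RPL27A, with 1 probe set, differed by 1.19. In RPS16, of the small subunit head, 201258_at lay 0.85 lower on average (-0.85), where 213890_x_at differed by 0.07. With median-centred arrays the differences of RPL38 (221943_x_at), RPL37A and RPL27A shrank to 0.86, 0.47 and 0.57, and that of RPS16 grew to -1.60.

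**Figure D5:**
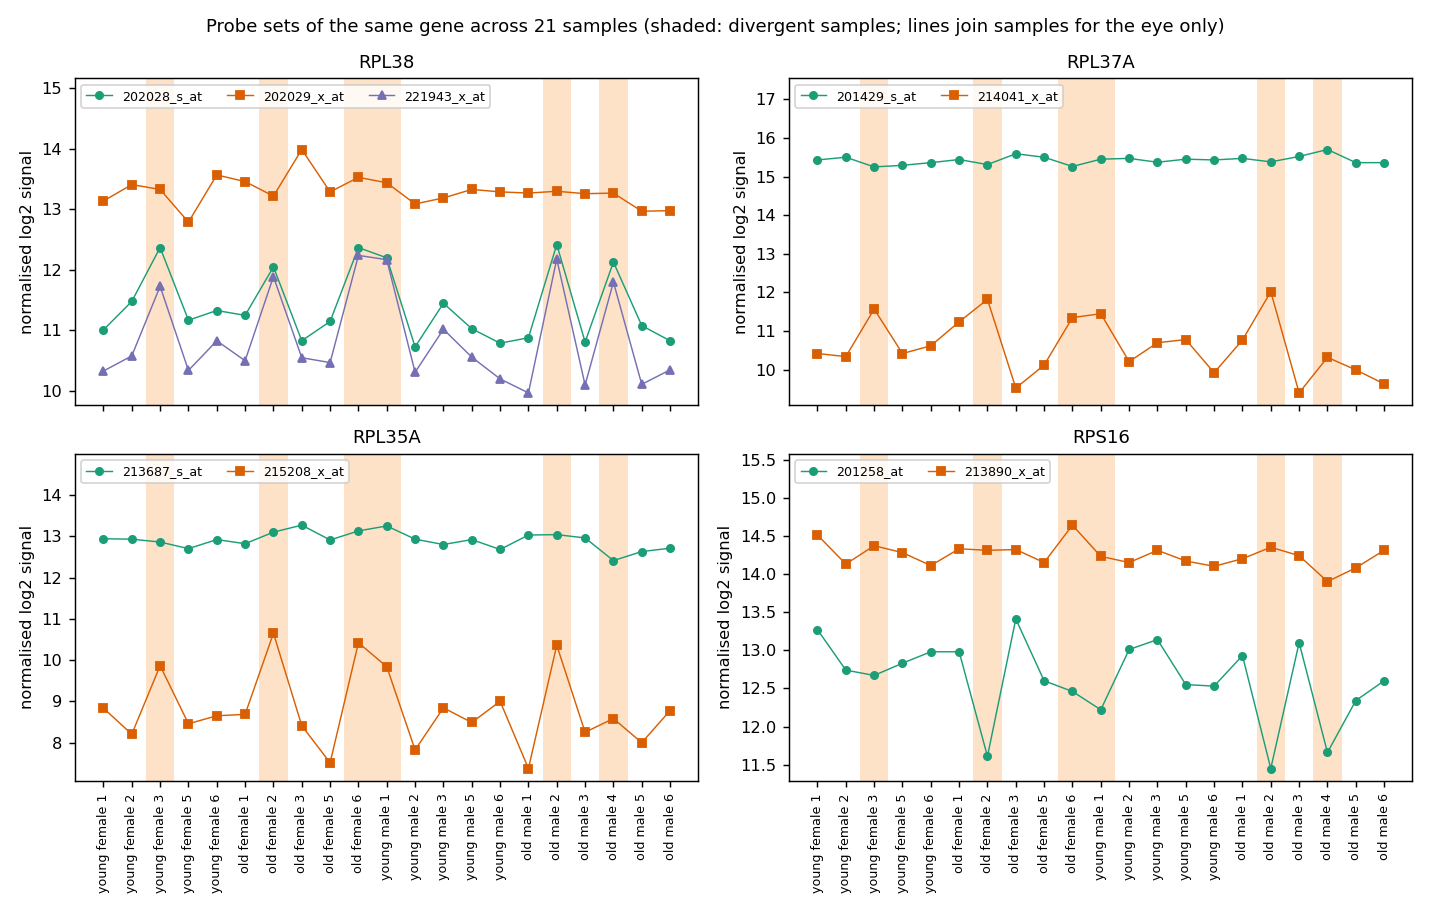
Log2 signal of all tested probe sets of RPL38, RPL37A, RPL35A and RPS16 in each of the 21 samples, with the divergent samples shaded; lines only join the points of a probe set, and each panel has its own vertical scale. The dimmer probe sets of RPL38, RPL37A and RPL35A lie higher in most shaded samples, by 1.15 to 1.60 on average, while the brightest probe set of each gene differs by 0.09 or less.

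Probe sets of the same gene did not follow each other more than those of different genes as a rule. Over 40 same-gene pairs the median r across samples was 0.26 (range -0.48 to 0.96), and over 3041 pairs of different genes 0.24 (-0.69 to 0.91). High values came from RPS19 (0.91), RPL12 (0.83), RPS6 (0.66 to 0.71) and from RPL22 (0.88 for its best pair). Of 18 genes with 2 or more tested probe sets, 7 had age differences of opposite sign among them in males and 6 in females, RPL18, RPL22, RPL29 and RPL31 in both. With differences this close to 0, the sign on 1 probe set did not carry over to another in these genes.

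Other genes of ribosome production were read beside the members. FAU, which encodes a ribosomal protein fused to a ubiquitin-like one, differed by 0.20 ± 0.21 in males and 0.33 ± 0.22 in females. Translation factors with the same pyrimidine start (32 probe sets of 14 genes of 18 listed) had medians of -0.01 in males and 0.06 in females, with 26 of 32 higher in old females, where 45.5% of all probe sets were, and 0 at an unadjusted p below 0.05 in either sex, against 3.36% of all probe sets in males and 2.84% in females. Ribosome assembly genes (25 probe sets of 21 genes of 38 listed) had -0.01 and 0.02, with 0 of 25 at that p in males and 1 of 25 in females (4% against 2.84%), GAR1 of the pseudouridylation complex, higher in old females by 0.84 ± 0.33 (unadjusted p = 0.0201, limma adjusted p = 1). RNA polymerase I genes (9 probe sets of 7 genes of 11 listed) had -0.15 and -0.10. The 47 tested probe sets with several symbols, 1 of them a ribosomal protein, had -0.02 and 0.02. In these lists 0 probe sets had a limma adjusted p below 0.05 in males or females.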

How the data were processed

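Each array came as linear intensities that the authors deposited, with 1 value per probe set. No source used here gives the summary of probes into probe sets. The mean of each array, without the top and bottom 2%, lay between 500.12 and 500.17, so the deposited intensities had been scaled to a common level. Array medians of log2(intensity + 16) still spanned 0.81, so the arrays were quantile normalised. Total RNA had been extracted with phenol and chloroform and labelled with biotin, per the labels' protocols. Precision is limited by how many arrays there are.

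The log2 values of 3 array pairs differed by an SD of 0.42 to 0.55, and those of the other 273 pairs by at least 0.64. These 3 pairs were averaged. The 62 control probe sets were left out, and the 11108 of 22215 probe sets with a mean at or above the median of the means were tested. Limma 3.58.1 (R 4.3.3; lmFit, eBayes with an intensity trend) fitted 1 mean per group to all 21 samples, with Benjamini-Hochberg adjustment over all probe sets tested, a threshold of 0.05, and SEs from the model. The fit was tested on simulated data.

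Genes were named from the platform annotation (19064 probe sets with 1 symbol, 1043 with several, which were left unnamed, and 2108 unnamed here). The RefSeq gene table was used for neighbours only. The members, gene lists and tests were chosen with earlier results of these data known. Named were, in each age comparison within a sex, all genes with an unadjusted p below 0.05 on their brightest probe set, filled up to the 6 smallest p in each direction, and the 3 smallest p in each direction in the other comparisons. Not every gene so chosen is given with its value in the comparison that chose it. Between old males and old females only members lower in males are given. Paralogs, RPLP1, RPLP2, RPS6, RPL11 and RPL39, the most variable, brightest and dimmest probe sets were also named. RPS10, RPS7, RPL6, RPL14 and the probe sets that set divergent samples apart were named after their values were seen.

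Alternatives were 24 arrays, median-centred arrays, deposited scaling, no filter, pseudocounts of 1 and 64, array weights, no intensity trend, the actin ratio as covariate, the replicate number as block, 1 probe set per gene, and leaving out the divergent samples or each sample in turn. Divergence as a block was added after seeing the data.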

Additional observations from a re-analysis of the deposited data

Results flagged for a closer look

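Among 116 groups of 5 or 6 samples checked for members named above and the members' mean, 5 held a sample far from the rest of its group. Chance sets apart about 1 in 20 such groups. The mean deviation of all members was 0.20 in old male 2, where the other old males lay between -0.20 and -0.07. RPS9 (217747_s_at) read 13.93 in young male 5, against 12.81 to 13.11 in the other young males. RPS6 (200081_s_at) read 13.77 in old male 4, against 14.05 to 14.19 in the other old males, and RPS6 (201254_x_at) read 14.65 in young female 3, against 14.8 to 14.86 in the other young females. RPL14 (219138_at) read 5.417 in young male 1, against 8.122 to 8.632 in the other young males. Old male 2, old male 4, young female 3 and young male 1 are divergent samples, and young male 5 is not.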

How the results depend on the processing

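In every alternative run, 0 members had a limma adjusted p below 0.05 in any of the 6 comparisons. The median difference of the members ranged from -0.15 to 0.02 in males (-0.02 as reported) and from -0.02 to 0.13 in females (0.07), and large minus small from -0.06 to 0.03 and from -0.10 to 0.02, each within the spread between samples. The number of members at an unadjusted p below 0.05 moved more. In males (0) it was 1 with 24 arrays, with deposited scaling, with the actin ratio and with divergence as a block, 3 without the divergent samples and 6 with array weights. In females (2) it was 0 with median-centred arrays, deposited scaling or no trend, and 1 with no filter or array weights. Between old males and old females (8) it was 2 with median-centred arrays and without the divergent samples, 3 with no trend, 4 with deposited scaling and 5 with array weights or the actin ratio. Leaving out 1 sample gave 0 to 1 in males (1 without old male 3, young male 1 or young male 6), 0 to 4 in females (0 without old female 3, 5 or 6, 1 without young female 1, 2, 3 or 5 or young male 2 or 6, 4 without old female 1) and 1 to 9 between old males and females (1 without old female 3, 3 without old female 6, 5 without old male 4, 5 or 6). Without the divergent samples the groups did not overlap in 4 members in males (5.31% of all probe sets), 1 in females (3.54%) and 7 between old males and females (4.33%).

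With the replicate block the count was 2 in males and 4 between old males and females. Samples with the same number had a median correlation of 0.06, from -0.42 to 0.51, against -0.01 for different numbers, and 9 of 21 samples correlated best with their own number, so the numbers were not taken to pair samples.

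Of 2376 values of single genes, 19 changed sign by more than 1 SE, and the causes were not tested. With median-centred arrays, RPL22 became -0.06 in males and -0.05 between the old sexes, RPL8 -0.02, RPS19 -0.10 and RPLP1 -0.16 in males, and RPS6 -0.12 and -0.07 and RPLP1 0.00 in females. With deposited scaling, RPL22 became -0.02 in males and -0.10 between the old sexes, RPL8 -0.04 between the old sexes, and RPS19 -0.06 and RPLP1 -0.12 in males. Without the divergent samples, RPL23A became 0.14 and RPLP1 0.02 between the old sexes, and RPLP1 -0.03 in females. Leaving out 1 sample, RPS29 ranged from -0.07 (without old female 3) to 0.33 in females and from -0.40 to 0.00 (without old female 3) between the old sexes, and RPLP2 from -0.39 (without young male 6) to 0.69 in males. The pseudocount understates differences of dim probe sets such as those of RPLP2 and RPL39.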
